A study of Mus musculus with 3 samples.

Results

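Imprinted genes are transcribed mainly from 1 parental copy, and many of them set the size of the embryo. Paternally expressed members such as Igf2 tend to promote fetal growth, and maternally expressed members such as Cdkn1c and Igf2r tend to limit it. In the fetal heart Igf2 feeds the receptors of the insulin-like growth factor pathway, which drive division of heart muscle cells before birth.

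The genes described here are 10 imprinted growth genes, taken by name: every gene probe of the array named Igf2, H19, Dlk1, Meg3 (also written Gtl2), Cdkn1c, Peg3, Mest, Grb10, Plagl1 or Igf2r. They are 10 of 27630 gene names on the array and were read by 22 probes of the 41174 gene probes on each array, and 3 of the 10 genes had 1 probe. A pair of the Meg3 probes carried other names in the file of replicate 1 and was joined by probe. Igf2, Dlk1, Peg3, Mest and Plagl1 form the growth-promoting group of 5 genes, and H19, Meg3, Cdkn1c, Grb10 and Igf2r the growth-limiting group of 5.

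The samples were hearts of C57BL/6 mouse embryos at embryonic day 15.5, homozygous for loss of Lrrc10 in every cell (Lrrc10-/-) or wild type (Lrrc10+/+). The Lrrc10 protein, with leucine-rich repeats, is made in heart muscle cells. Per the study's methods the pools came from littermates, and the 3 arrays were 3 biological replicates, each carrying 1 pool of 2 Lrrc10-/- hearts in Cy5 against 1 pool of 2 wild-type hearts in Cy3. Dyes were not exchanged, so dye and genotype cannot be told apart. The wild-type channel also carries a label of adult age beside the embryonic one, and the embryonic age was taken. The study asked which transcripts differ before birth when Lrrc10 is lost.

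The targeted gene went against the labels. Cy5, labelled Lrrc10-/-, held more Lrrc10 signal than Cy3 on each of the 3 arrays, with log2 ratios of 3.99, 4.78 and 4.45 on replicates 1, 2 and 3 (mean 4.41 ± 0.40, SD, n = 3; limma adjusted p of 0.000386). Every direction below is therefore given as Cy5 (labelled Lrrc10-/-) over Cy3 (labelled wild type), and higher and lower would change places if the labels were exchanged. Whether this probe lies in the deleted part of the gene is not given in the sources used here, and a probe outside it would not check the labels. All 10 heart muscle markers were well above background in both channels of all arrays. Between 63.9% and 93.2% of gene spots were well above background in a channel, and the median log2 ratio of tested probes was -0.01, 0.04 and -0.00 on replicates 1, 2 and 3. In such tissue pools fewer cells of a type and less RNA per cell cannot be told apart.

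H19 and Meg3, the maternally expressed non-coding RNAs of the group, were read by several 60-base probes, designed on more than 1 transcript record of each gene. Their sequences are shown because the results for these genes rest on how far the probes of 1 gene move together. The G and C share of the probes lay between 41.7% and 55%.
H19 A_51_P142196: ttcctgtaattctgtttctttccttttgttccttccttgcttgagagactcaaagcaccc
H19 A_52_P571350: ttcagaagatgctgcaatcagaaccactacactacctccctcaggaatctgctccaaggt
Meg3 A_51_P455997: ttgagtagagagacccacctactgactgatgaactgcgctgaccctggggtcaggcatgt
Meg3 A_52_P391505: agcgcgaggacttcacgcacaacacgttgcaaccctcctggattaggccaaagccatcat
Meg3 A_51_P109649: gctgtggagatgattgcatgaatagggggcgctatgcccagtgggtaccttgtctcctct
Meg3 A_52_P196568: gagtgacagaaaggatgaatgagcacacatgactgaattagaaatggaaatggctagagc
Meg3 A_52_P99341: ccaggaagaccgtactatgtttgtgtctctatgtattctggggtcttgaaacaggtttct
The H19 probes lie on chromosome 7 at 149761769 to 149761828 and 149762018 to 149762165 of the minus strand, in the mm9 coordinates of the files. The second span is longer than the probe. The Meg3 probes lie on the plus strand of chromosome 12 between 110787974 and 110809737.

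No member passed the test. Of the 22 probes, all 22 of which were tested, 0 were called higher and 0 lower in Cy5 (limma, adjusted p under 0.05), against 1.39% and 0.00353% of the 28326 tested probes. At an unadjusted p under 0.05, 0 member probes were higher and 4 lower, against 9.06% and 4.26% of all tested probes, and the 4 were both Dlk1 probes, 1 of 3 Peg3 probes and the Cdkn1c probe. By the methods' t-test 0 were higher and 1 lower at an unadjusted p under 0.05, against 5.4% and 3.89% of all tested probes. After adjustment that test passed 0 of the 28326 tested probes. The rule of a 1.2-fold ratio in 1 direction on all 3 arrays, applied to the same ratios, found 0 member probes, against 4.12% higher and 1.23% lower among all tested probes.

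Over the 22 member probes the median of the mean log2 ratios was -0.18, against 0.01 for all tested probes, and 14 of 22 means (63.6%) were below 0, against 47.4%. Ratios were below 0 on all 3 arrays for 8 probes (among them the saturated probes of Igf2 and Mest described below), above 0 on all 3 for 1 and mixed for 13. Among all tested probes 17.4% were below 0 on all 3 arrays and 19.1% above. Several probes read the same gene, so these counts are not over independent readings.

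**Figure D1:**
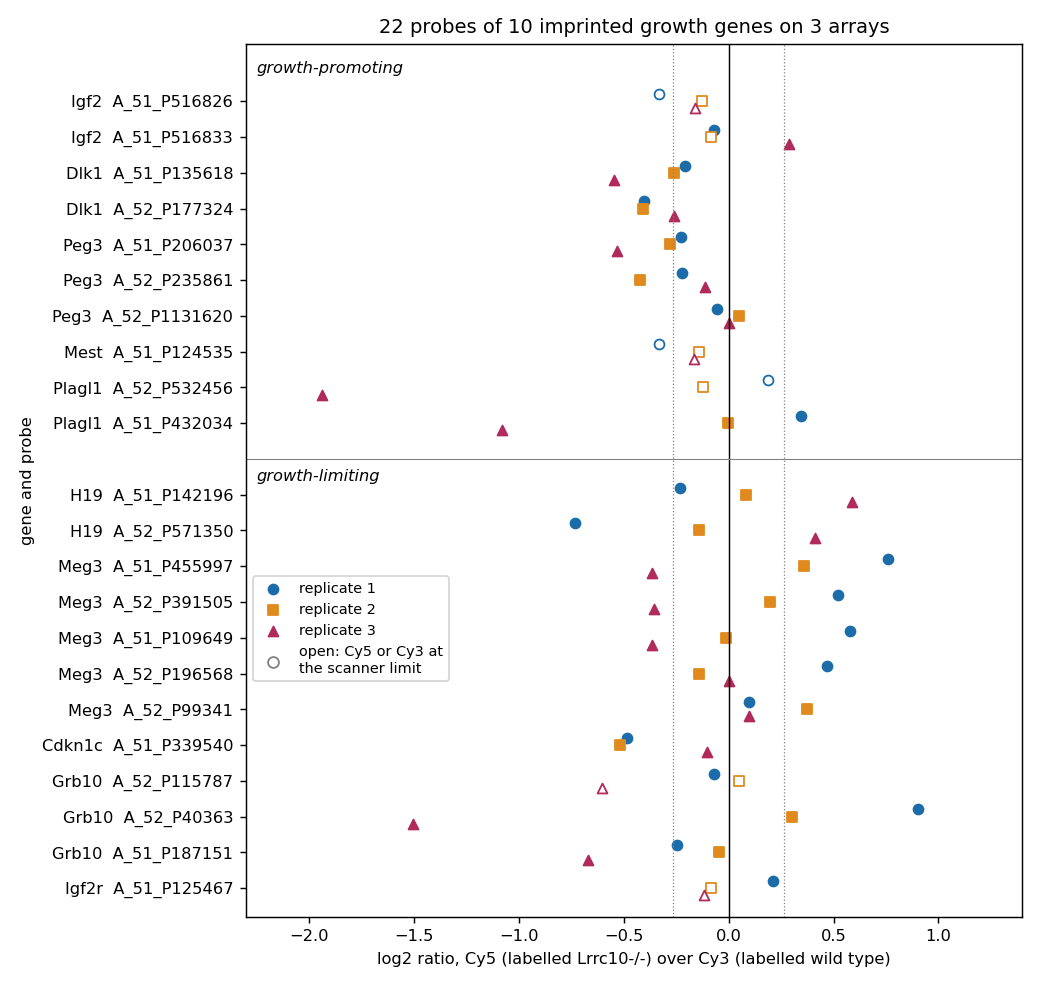
Loess log2 ratio of Cy5 over Cy3 (horizontal axis) for each of the 22 probes (rows), with 1 symbol per array, open where either channel of the array stood at the scanner's limit, and dotted lines at 1.2-fold. Plagl1 and the Grb10 probe A_52_P40363 reached -1.94 and -1.51 on replicate 3, while Dlk1, 2 of 3 Peg3 probes and Cdkn1c lay below 0 on all 3 arrays.

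Several of these transcripts were too bright for the scanner. Of the 22 probes, 6 had a channel at the scanner's limit on at least 1 array, and 3 genes (Igf2, Mest and Igf2r) had no probe without such a value. Where both channels are at the limit the ratio is set by the limit and the normalization, and no fold is given.

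Igf2, the growth factor of the group, was read by 2 probes on chromosome 7. Probe A_51_P516826 was spotted 10 times and was saturated in both channels at all 10 spots of all 3 arrays, with processed signals of 94368, 43153 and 73670 in Cy5 against 123597, 47401 and 92848 in Cy3 (replicates 1, 2 and 3 here and below). Its log2 ratios of -0.33, -0.13 and -0.16 were those of other probes at the limit: the heart muscle genes Tnnt2 and Myl2 both gave -0.33, -0.12 and -0.16. The SD of the 10 spots was 0.00011 on replicate 1, so repeat spots carried no further information there. The other Igf2 probe, A_51_P516833, was below the limit except in Cy5 on replicate 2. It read 53988, 38748 and 57400 in Cy5 and 70350, 47750 and 55395 in Cy3, and its log2 ratios -0.07, -0.09 and 0.29 (mean 0.04 ± 0.21, SD, n = 3; limma adjusted p of 0.920). Igf2 RNA was thus not seen to differ in 1 direction at this range of signal.

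Mest, which encodes an enzyme of the alpha/beta-hydrolase family, had 1 probe, at the limit in Cy5 on all arrays and in Cy3 on replicates 1 and 3. Its ratios of -0.33, -0.14 and -0.16 were again those of saturated probes. Igf2r encodes the receptor that carries Igf2 to the lysosome. Its probe was at the limit in Cy5 on replicates 2 and 3 and in Cy3 on replicate 3, and was unsaturated on replicate 1, where Cy5 read 84003, Cy3 66089 and the log2 ratio 0.21. The log2 ratios on replicates 2 and 3 were -0.08 and -0.12.

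Dlk1, a membrane protein of the Notch ligand kind with a form released from the cell, was lower in Cy5 at both probes on all 3 arrays. Processed signals of A_51_P135618 were 14403, 10320 and 13204 in Cy5, with 15912, 12438 and 21046 in Cy3. Probe A_52_P177324 read 2551, 1754 and 1618 in Cy5 and 2943, 2158 and 1911 in Cy3. Cy5 was thus the dimmer channel within each array, although the ranges over arrays overlap. The log2 ratios were -0.21, -0.26 and -0.55 for the former (mean -0.34 ± 0.18, SD, n = 3) and -0.41, -0.41 and -0.26 for the latter (mean -0.36 ± 0.09, SD, n = 3). The limma adjusted p was 0.311 and 0.255, so neither passed, and 0.255 was the lowest of any member probe.

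Peg3 encodes a zinc finger protein and was read at 3 places on chromosome 7. Probe A_51_P206037 had log2 ratios of -0.23, -0.28 and -0.53 (mean -0.34 ± 0.16, SD, n = 3; limma adjusted p of 0.296), and A_52_P235861 had -0.22, -0.42 and -0.11. Their processed signals lay between 146 and 671. The third probe, A_52_P1131620, designed on another transcript record, was dim (32.0 to 54.6) and gave -0.06, 0.05 and 0.00. The brighter probes thus lay below 0 on all arrays and the dim one close to 0.

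Plagl1, a zinc finger transcription factor that acts on other imprinted genes, differed widely between arrays at both probes. Processed signals of A_51_P432034 were 2877, 1319 and 333 in Cy5, with 2284, 1356 and 1097 in Cy3. The log2 ratios were 0.34, -0.00 and -1.08, so Cy5 was the brighter channel on replicate 1, level on replicate 2 and the dimmer on replicate 3. Probe A_52_P532456, unsaturated in both channels on replicate 3 alone, read 11115 in Cy5 and 50368 in Cy3 there, a log2 ratio of -1.94, and 0.19 and -0.12 on replicates 1 and 2. The software's own log2 ratios on replicate 3 were -1.72 and -2.18. The SD over arrays of these probes was larger than that of 98.6% and 99.8% of tested probes, and their means of -0.25 and -0.62 did not pass (limma adjusted p of 0.713 and 0.507). Without replicate 3 the means were 0.17 and 0.03.

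Among the growth-limiting genes, Cdkn1c lay below 0 on all 3 arrays. It encodes the cyclin-dependent kinase inhibitor p57, which holds cells out of division. Its probe read 18197, 18822 and 51853 in Cy5 and 22429, 23959 and 60474 in Cy3, with log2 ratios of -0.48, -0.52 and -0.10 (mean -0.37 ± 0.23, SD, n = 3; limma adjusted p of 0.298). Without replicate 3 the mean was -0.50 and it passed (limma adjusted p of 0.0460). That fit of 2 arrays called 1787 of 28110 tested probes, against 396 of 28326 with all 3 arrays. Leaving out replicate 1 or replicate 2 instead called 2 and 1 probes. Of the relatives of Cdkn1c, Cdkn1b (p27) averaged 0.63 (0.49, 0.49 and 0.91; limma adjusted p of 0.0946) and Cdkn1a (p21) 0.03, and neither passed.

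H19 had the reverse order of Plagl1 across arrays. Probe A_51_P142196 read 80619, 25214 and 37082 in Cy5 and 102804, 25619 and 27814 in Cy3, with log2 ratios of -0.23, 0.08 and 0.59. Probe A_52_P571350 gave -0.73, -0.14 and 0.41. Both had their lowest ratio on replicate 1 and their highest on replicate 3, and the probes differed from each other by 0.50, 0.23 and 0.17 on replicates 1, 2 and 3. The means of 0.15 ± 0.41 and -0.15 ± 0.57 (SD, n = 3) had opposite signs and did not pass (limma adjusted p of 0.751 and 0.790).

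Meg3 was read by 5 unsaturated probes. The brightest, A_51_P455997, read 11453, 15381 and 17153 in Cy5 and 7231, 13048 and 25114 in Cy3, with log2 ratios of 0.76, 0.36 and -0.36. The next, A_52_P391505, gave 0.52, 0.20 and -0.35, and A_51_P109649 gave 0.58, -0.01 and -0.36. These 3 were highest on replicate 1 and lowest on replicate 3. The dimmer A_52_P196568 (0.47, -0.14 and 0.00) was also highest on replicate 1. A_52_P99341 was above 0 on every array, at 0.10, 0.38 and 0.10, the only member probe to be so. The 5 means lay between 0.07 and 0.25 and none passed. Without replicate 3 the brightest probe averaged 0.56 and passed (limma adjusted p of 0.0353), in the fit that called 1787 of 28110 tested probes.

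Grb10, an adaptor that damps signals of the insulin and insulin-like growth factor receptors, gave unlike readings along its transcript. Probe A_52_P40363, near the start of the transcript at position 320, read 2194, 5253 and 2297 in Cy5 and 1042, 3783 and 7200 in Cy3. Its log2 ratios were 0.90, 0.30 and -1.51, with an SD larger than that of 99.8% of tested probes. The probes further along, A_51_P187151 at position 1951 and A_52_P115787 at position 4566, gave -0.24, -0.05 and -0.67, and -0.07, 0.05 and -0.60, the last with Cy5 at the limit on replicate 2 and Cy3 on replicate 3. All 3 probes were lowest on replicate 3, and the first differed from A_51_P187151 by 1.15, 0.35 and 0.83. None passed on all 3 arrays. Without replicate 3 the first probe averaged 0.60 and passed (limma adjusted p of 0.0319), with the opposite sign to its mean of -0.10 over all 3 arrays. The fit without replicate 3 called 1787 of 28110 tested probes.

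**Figure D2:**
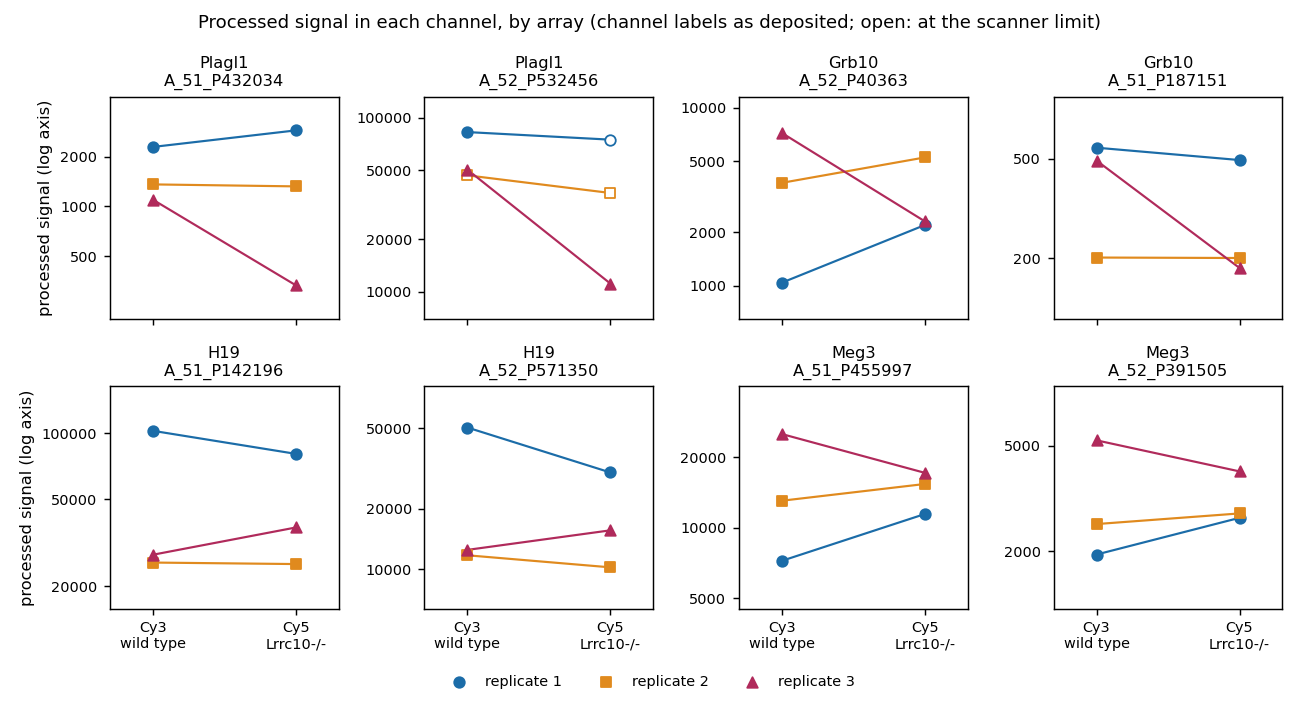
Processed signal (vertical log axis, arbitrary scanner units) in Cy3 and Cy5, joined for each array, for 2 probes each of Plagl1, Grb10, H19 and Meg3. On replicate 3 the Cy5 signal was below Cy3 for Plagl1, Grb10 and Meg3 and above it for H19, and on replicate 1 Meg3 and H19 had the opposite order.

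Replicate 3 thus stood apart for several members. On that array 3 of 22 member probes (13.6%) had a log2 ratio of -1 or lower, against 189 of 28326 tested probes (0.668%), and all 3 were the Plagl1 and Grb10 probes above. This limit was chosen after the values were seen. Across the 22 member probes the log2 ratios of replicates 1 and 2 correlated with Pearson's r of 0.658, those of replicates 1 and 3 with -0.448 and those of 2 and 3 with -0.110, as a description over probes that share genes and arrays. Over all tested probes the same values were 0.510, 0.219 and 0.223. Kcnq1ot1, the non-coding RNA of the Cdkn1c region, was chosen for mention after its values were seen: its probe A_52_P619388 gave 1.45, 0.43 and -1.35. A further probe, A_52_P474551, gave 0.08, 0.33 and -1.11. The other tested Kcnq1ot1 probes, A_51_P232763 (-0.00, -0.18 and -0.14) and A_52_P618494 (0.00, -0.13 and -0.03), had ratios near 0 on replicate 3. Both probes were dim there, with processed signals of 53.5 and 57.6 in Cy5 against 101.5 and 93.7 in Cy3. Cy5 was thus the dimmer channel at both, and the offset draws such dim ratios toward 0. These ratios therefore do not show that the Kcnq1ot1 probes differed on replicate 3. Rian, likewise a gene of the members' regions, went the other way on replicate 3 at its probe A_52_P244 (-0.33, -0.09 and 1.18). Its probe A_52_P102630 gave -0.02, 0.19 and -0.21, and on replicate 3 read 69.5 in Cy5 against 152 in Cy3, where the offset also bears. The Rian probes thus had opposite signs on replicate 3.

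The proximal promoters of the genes that were lowest on replicate 3, Plagl1 and Grb10, are shown as RefSeq gives them for GRCm38.p6. Each is the 250 bases before a gene start with each CpG in capitals, since imprinted regions are marked by methylation of CpGs. Whether the CpGs shown are the ones that carry this mark is not given in the sources used here. No methylation was measured here.
Plagl1, chr10:13090582-13090831, plus strand: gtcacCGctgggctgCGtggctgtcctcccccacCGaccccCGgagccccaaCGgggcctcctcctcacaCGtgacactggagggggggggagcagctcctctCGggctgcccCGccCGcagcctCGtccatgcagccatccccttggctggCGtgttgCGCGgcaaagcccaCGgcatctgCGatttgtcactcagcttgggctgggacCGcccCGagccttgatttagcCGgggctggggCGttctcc
Grb10, chr11:12037421-12037670, minus strand: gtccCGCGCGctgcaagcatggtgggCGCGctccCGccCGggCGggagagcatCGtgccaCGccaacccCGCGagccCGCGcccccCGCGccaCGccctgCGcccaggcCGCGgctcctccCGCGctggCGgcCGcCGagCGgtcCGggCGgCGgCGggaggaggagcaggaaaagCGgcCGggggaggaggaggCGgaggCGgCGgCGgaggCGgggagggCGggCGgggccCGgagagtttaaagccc
They hold 19 and 40 CpGs. In the same span the Igf2r promoter holds 27, 1 Igf2 promoter 22 and the remaining member promoters 0 to 14. The further Grb10 promoter in that table, nearer the end of the gene, holds 8 in its 250 bases. Promoters were given for 8 of the 10 genes, 15 in all, and the 300-base windows around their starts held a median of 13 CpGs against 7 over all 32851 promoters. The motif GGGGCCCC, a palindrome known as a Plagl1 binding sequence and read the same on both strands, was in 1 of the 15 (Peg3), against 1.08% of all promoters. Its site in the Peg3 promoter begins 201 bases before the start, with the motif in capitals: gactctgcttgGGGGCCCCtaacactgact. The Peg3 ratios on replicate 3 are those given above, between -0.53 and 0.00.

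Set against each other, the growth-promoting genes had lower Cy5 over Cy3 ratios than the growth-limiting genes on every array. With the brightest probe of each gene, the mean log2 ratio of the 5 growth-promoting genes was -0.18, -0.19 and -0.67 on replicates 1, 2 and 3, and that of the 5 growth-limiting genes 0.04, -0.02 and -0.12. The difference was -0.22, -0.16 and -0.55 (mean -0.31 ± 0.21, SD, n = 3), and as a score over chosen genes it has no test. The mean difference was -0.19 without replicate 3 and -0.17 with all tested probes of a gene averaged. The brightest probes of Igf2, Mest and Plagl1, 3 of the 5 growth-promoting genes, stood at the scanner's limit on some or all arrays, so part of this difference is between values set by the limit. The individual genes overlapped: Cdkn1c, a growth-limiting gene, was among the lowest on replicates 1 and 2, and Plagl1 was above 0 on replicate 1. With unsaturated probes only, which left 3 growth-promoting and 4 growth-limiting genes, the difference was -0.27, -0.24 and -0.37 (mean -0.29 ± 0.07, SD, n = 3). On replicate 3 Plagl1 and Grb10 weigh on both sides, and with them left out as well the difference was -0.23, -0.24 and -0.58. That left 2 growth-promoting and 3 growth-limiting genes, and the genes left out were chosen by their values on replicate 3.

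**Figure D3:**
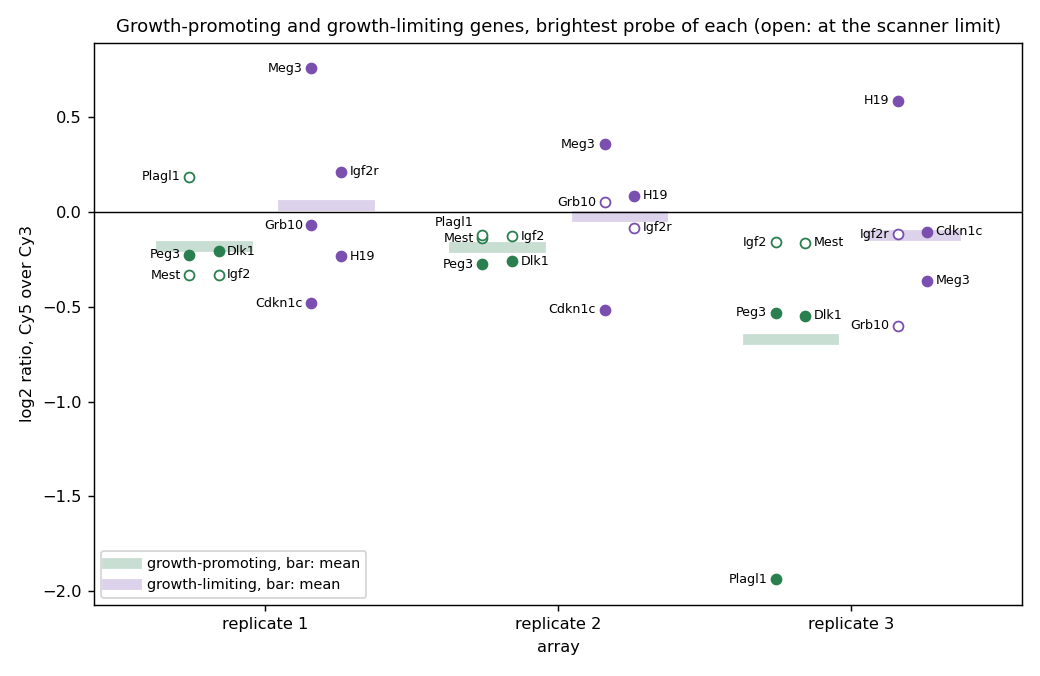
Log2 ratio of Cy5 over Cy3 (vertical axis) of the brightest probe of each gene on each array, with growth-promoting and growth-limiting genes side by side and a bar at each group's mean. Open symbols mark values at the scanner's limit, which enter the means. The means of the growth-promoting genes (-0.18, -0.19 and -0.67) lie below those of the growth-limiting genes (0.04, -0.02 and -0.12), with single genes of both groups overlapping.

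Members of 1 imprinted region with opposite parental expression were set side by side. Igf2 and H19 share enhancers and are expressed from opposite parental copies. The ratio of the Igf2 probe A_51_P516833 minus that of the H19 probe A_51_P142196 was 0.16, -0.17 and -0.30 (mean -0.10 ± 0.24, SD, n = 3), so the order of the pair changed between arrays. For Dlk1 and Meg3, likewise of 1 region, the difference of the brightest probes was -0.96, -0.62 and -0.18 (mean -0.59 ± 0.39, SD, n = 3). The Dlk1 probe of this pair thus had the lower ratio on all 3 arrays, by the least on replicate 3. The other Dlk1 probe, at -0.26 on replicate 3, lay above 3 of the Meg3 probes there (-0.36, -0.35 and -0.36).

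The neighbours of the members were 30 listed genes of the same regions, of which 21 were tested. They held 0 called genes, with 2 higher and 3 lower at an unadjusted p under 0.05 and a median of -0.00. Among all tested probes 1.39% were called higher and 0.00353% lower. At an unadjusted p under 0.05 these shares were 9.06% and 4.26%. The neighbours of lowest p, none of which passed, were Airn, a non-coding RNA that overlaps Igf2r (0.49, 0.50 and 0.28; limma adjusted p of 0.194), Tssc4 (mean 0.39) and the insulin gene Ins2 (0.22) above 0. Below 0 they were Copg2, which lies beside Mest (-0.35, -0.36 and -0.40; limma adjusted p of 0.232), Cobl (-0.43) and Ddc (-0.31), both beside Grb10. Of the 21 tested neighbours 3 were above 0 on all 3 arrays and 6 below, against 19.1% and 17.4% of all tested probes.

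Of 26 imprinted genes of other regions 24 were tested and 0 were called, against 1.39% higher and 0.00353% lower among all tested probes. At an unadjusted p under 0.05, 1 was higher and 1 lower, against 9.06% and 4.26% of all tested probes. Their median was -0.02. The lowest p above 0 belonged to Mcts2 (0.63, 0.49 and -0.00), Ppp1r9a (mean 0.27) and Zrsr1 (0.18), and none passed. Below 0 they belonged to the matrix proteoglycan Dcn (-0.54, -0.22 and -0.55; limma adjusted p of 0.205), the G protein subunit Gnas (mean -0.25) and the calcitonin receptor Calcr (-0.20). The median of these genes was close to that of all tested probes, which was 0.01.

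In the insulin-like growth factor pathway, through which Igf2 acts and on which Igf2r and Grb10 bear, 27 of 29 listed genes were tested. Of these 0 were called, against 1.39% higher and 0.00353% lower among all tested probes. At an unadjusted p under 0.05, 1 was higher and 3 lower, against 9.06% and 4.26% of all tested probes. The median was -0.06. Of the ligands, Ins2 averaged 0.22 and none passed. Of the receptors, Igf1r, which transmits the Igf2 signal, was below 0 on all arrays (-0.28, -0.16 and -0.53; limma adjusted p of 0.332), and the insulin receptor relative Insrr averaged 0.27. Among binding proteins Igfbp2 was the one of lowest p, at -0.40, -0.67 and -0.28 (limma adjusted p of 0.199). Of adaptors and kinases, Irs1, a docking protein of Igf1r and the insulin receptor, gave 0.45, 0.78 and 0.37 (limma adjusted p of 0.148). The growth kinase Mtor averaged -0.29. Without replicate 3, Irs1 (0.61; limma adjusted p of 0.0189) and Igfbp2 (-0.54; limma adjusted p of 0.0369) passed, where 1787 of 28110 tested probes were called.

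**Figure D4:**
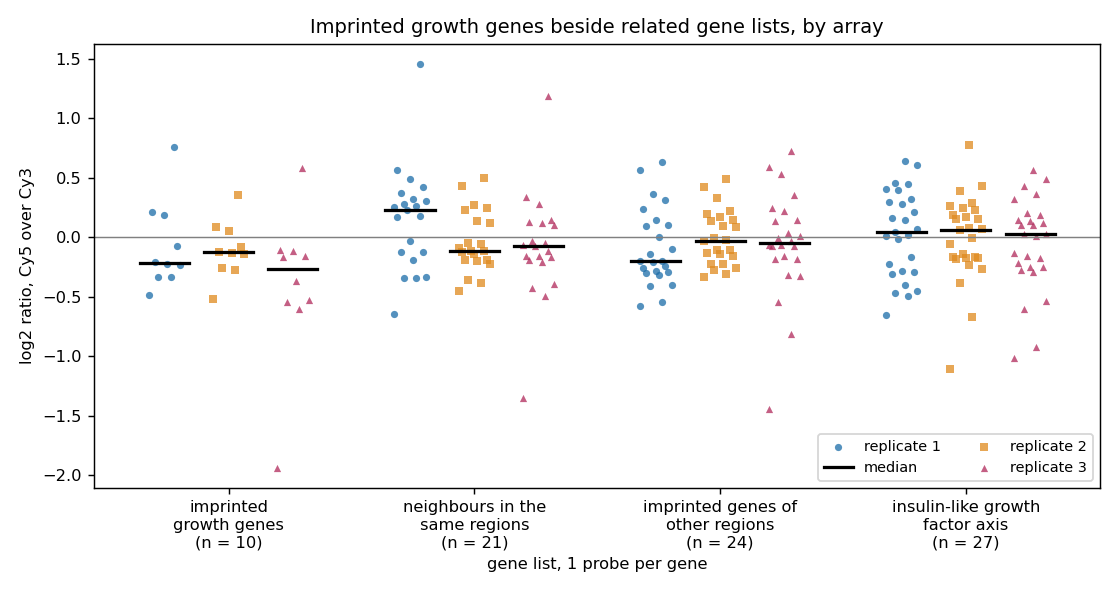
Log2 ratio of Cy5 over Cy3 (vertical axis), 1 point per gene and array, for the 10 imprinted growth genes and the 3 lists, with the median of each list on each array as a black line. Probes at the scanner's limit are included, those of Igf2, Mest and Plagl1 among them. The medians of the growth genes were -0.22, -0.13 and -0.26 on replicates 1, 2 and 3, and those of the insulin-like growth factor pathway 0.04, 0.06 and 0.02.

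Markers of other tissues differed between arrays. Of 14 liver markers 13 were on the array and 8 were tested. The summed processed signal of the 13, as log2 of Cy5 over Cy3, was 0.71, -2.78 and 0.45 on replicates 1, 2 and 3. The medians of the loess log2 ratios of the 8 tested were 0.54, -1.94 and 0.08. On replicate 2 Afp lay at -5.15 and Alb at -2.74. Fetal liver is rich in Igf2, H19 and Dlk1. On replicate 2 Dlk1 lay at -0.26 and -0.41 and the H19 probes at 0.08 and -0.14. On replicate 1, where the liver sum was higher in Cy5, Dlk1 lay at -0.21 and -0.41 and the H19 probes at -0.23 and -0.73. On replicate 3, with a liver sum of 0.45, Dlk1 lay at -0.55 and -0.26 and the H19 probes at 0.59 and 0.41. The part of liver RNA in these results was not tested. Summed erythroid markers were -0.60, -0.43 and -0.43 (6 of 7 measured), whereas the medians of their loess log2 ratios were 0.01, -0.14 and -0.17. The erythroid sum was mostly 1 bright probe, of Hba-a1. On replicate 1 it read 74620 of the 81194 in Cy5 and 115547 of the 123269 in Cy3. The sums were, for epicardial markers -0.32, -0.34 and 0.19 and heart muscle markers, some at the scanner's limit, -0.43, -0.12 and -0.30. Of 5 placental markers 1 was tested, at 0.10, -0.09 and 0.49. Fibroblast and valve, endothelial, lung and skeletal muscle sums lay between -0.28 and 0.45, and 0 markers of any list were called.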

How the data were processed

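The members and the gene lists were chosen with earlier results of these data known. The deposited scanner files hold spot intensities, and the submitters' processing notes name Agilent Feature Extraction 9.5, whereas the file headers name versions 9.1.3.1 (replicate 1) and 10.7.3.1 (replicates 2 and 3). Processed intensities were background-subtracted and dye-normalized (linear and lowess) by the authors' software. The deposited log10 ratio is Cy5 over Cy3 of these, and the deposited series table holds the same log10 ratios, with medians of -0.0096, -0.0081 and 0.

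With limma 3.58.1 (R 4.3.3), log2 ratios were made from mean signals (normexp on the local background, offset 50; loess within each array, control spots at weight 0). The offset draws the ratios of dim probes toward 0. Non-uniform spots were dropped and spots of 1 probe averaged. Probes well above background in at least 1 channel, the same one on each of the 3 arrays, entered the test (28326 probes), against 0 with lmFit and eBayes, two-sided, Benjamini-Hochberg over all tested probes, threshold 0.05. The p-values rest on the spread between these 3 arrays, which eBayes draws toward a value shared by all tested probes. They therefore do not measure a probe's own spread alone. For Copg2, with an SD over arrays of 0.026, the unmoderated standard error was 0.015 and the moderated one 0.113. The number of arrays limits the precision. Saturation means that the software flagged the channel or that its signal reached 0.99 of the scanner limit. Processed signals are on the scale of each array, and levels of different probes were not compared.

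A gene in a list is read by its brightest tested probe. Genes named are all members, Lrrc10 and, in each list, the 3 of lowest p in each direction. Cdkn1a, Cdkn1b and the markers were given as whole lists. The methods' selection software was not rerun. On simulated data of 28082 probes, 82 of 100 probes changed by 1 and 99 of 100 changed by 2 on the log2 scale were called. So were 7 unchanged probes. The simulated noise was independent between arrays and no change smaller than 1 was simulated. The member mean furthest from 0 was -0.62, so the simulation does not tell how often changes of the members' size would be called.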

Additional observations from a re-analysis of the deposited data

How the results depend on the processing

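Each array sets 1 pool of each label against the other, so the test of the ratios against 0 is already the paired one and no further replicate block was added. Under the alternatives that keep all 3 arrays (other background corrections, normalizations, filters, weights, variance models, the methods' t-test and probe choices) 0 members and 0 genes of the 3 lists were called. Over all probes, where 396 were called in the reported fit, 0 were called by the t-test, under scaling between arrays and from either form of the software's processed values, and 1 each with a block for software version and with uncorrected background, so a count of 0 there says nothing of the members. Leaving out single arrays gave 0 to 2 members called higher and 0 to 1 lower, 0 to 2 neighbours, 0 to 2 other imprinted genes and 0 to 3 genes of the insulin-like growth factor pathway, every such call being made without replicate 3, where 1787 of all probes were called. The cause was not tested. Members past 1.2-fold on all arrays numbered 1 both with processed signals of the software and with the deposited series table (Peg3 A_52_P235861), 1 without background correction, with scaling between arrays or with the mean over all tested probes of a gene (Dlk1), 2 with median centring (Dlk1 and Cdkn1c) and 0 to 4 without single arrays. The growth-promoting minus growth-limiting difference stayed below 0 on every array under all alternatives, with means from -0.38 (without replicate 2) to -0.17 (mean over all tested probes of a gene).

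Of 20 member probes with a usable ratio, 8 kept their sign throughout, among them both Dlk1 probes, Cdkn1c and the brighter Peg3 probes, and the others changed sign, with no call in that direction except Grb10 A_52_P40363 without replicate 3. With the software's processed signals and the deposited series table the signs turned for Igf2 A_51_P516833 (-0.21), Meg3 A_51_P109649 (-0.15), Meg3 A_52_P196568 (-0.11), Peg3 A_52_P1131620 (0.074) and Cdkn1a (-0.045). With median centring they turned for Igf2 A_51_P516833 (-0.055), Igf2r (-0.11) and Peg3 A_52_P1131620 (0.034). Igf2r also turned without background correction (-0.0088) and with scaling (-0.021), as did Meg3 A_51_P109649 with scaling (-0.021). Grb10 A_52_P40363 turned with arrayWeights (0.16) and with the software version as a block (0.15), Igf2 A_51_P516833 with arrayWeights (-0.0028) and H19 with the mean of its probes (-0.0043).

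Leaving out each array in turn gave, from lowest to highest, -0.60 to 0.60 for Grb10 A_52_P40363, -0.074 to 0.34 and -0.44 to 0.13 for the H19 probes A_51_P142196 and A_52_P571350, -0.078 to 0.11 for Igf2 A_51_P516833, -0.10 to 0.063 for Igf2r, -0.027 to 0.028 for Peg3 A_52_P1131620, -0.54 to 0.17 and -1.03 to 0.032 for Plagl1 A_51_P432034 and A_52_P532456, -0.031 to 0.086 for Cdkn1a and -0.019 to 0.34 for Zrsr1. For Meg3 it gave -0.0036 to 0.56 (A_51_P455997), -0.078 to 0.36 (A_52_P391505), -0.19 to 0.28 (A_51_P109649) and -0.069 to 0.24 (A_52_P196568). Lrrc10 kept its direction, at 5.21 (limma adjusted p of 0.270) with the software's processed signals and the deposited series table, and missed the threshold also with scaling between arrays (0.371) and by the methods' t-test (0.504).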
